A study of Mus musculus with 6 samples.

Results

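The 10 genes described here are B2m and 9 heavy chain genes of MHC class I and its relatives in the mouse: the classical genes H2-K1 and H2-D1, the nonclassical genes H2-Q4, H2-Q5, H2-Q6, H2-Q7, H2-T23 and H2-M3, and the CD1 gene Cd1d1. They are 10 of the 25075 gene symbols counted, and all 10 were among the 15261 genes that passed the low count filter. They were matched by symbol, but the set was chosen by its measured counts in the comparison reported here, in which most of these genes were known to be higher in the libraries labelled Batf-deficient. Their values in that comparison are therefore given as a description, with no test and no p-value.

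A class I molecule is a heavy chain, which holds a peptide, bound to beta-2-microglobulin, the small invariant chain made by B2m. Classical heavy chains are made by nearly every nucleated cell and show peptides of the cell's own proteins to CD8 T cells. Nonclassical heavy chains are made in fewer settings and serve more specialised receptors: H2-T23 encodes Qa-1, a ligand of the inhibitory receptor NKG2A, H2-Q6 and H2-Q7 encode Qa-2 molecules, H2-M3 presents formylated peptides, and Cd1d1 presents lipids to NKT cells. Transcription of class I genes and B2m is known to be raised by interferons and NF-kappaB and to depend on NLRC5. Group 3 innate lymphoid cells (ILC3s), gut lymphocytes without antigen receptors, are better known for class II than for class I presentation.

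RNA was sequenced from Lin-CD90.2+KLRG1- cells of the small intestine of B6 mice, sorted as ILC3s, with 2000 cells a sample and 2 ng of RNA put into the Smart-seq2 protocol. The 3 labelled control libraries came from Batf fl/fl PLZF-Cre- mice and the 3 labelled Batf-deficient libraries from Batf fl/fl PLZF-Cre+ mice, so both groups carry the floxed allele. PLZF is expressed in the common precursor of helper ILCs and in NKT cells, so deletion is not limited to mature ILC3s. The labels give no age, sex or batch, and no Cre+ mice without floxed Batf are among the samples. The series calls the samples biological replicates, but labelled Batf-deficient libraries 1 and 2 were far more alike than any other pair of a group (mean chi-square per gene 2.36, against 14.8 to 24.2 elsewhere), so the p-values for other genes may measure a partly technical spread.

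With TMM scaling the libraries go against their labels. Batf, the targeted gene, was measured at 15.1, 15.3 and 18.9 CPM (counts per scaled library size, with TMM factors) in the labelled control libraries and at 38.2, 41.2 and 41.2 CPM in the labelled Batf-deficient ones. It was higher in the libraries labelled as lacking it, by 1.29 ± 0.16 on the log2 scale (SE, edgeR quasi-likelihood test, adjusted p = 1.70e-05). Relative to 19 lymphocyte genes (the panel, below) it was lower, in the direction of the labels (log2 fold change -1.33, edgeR adjusted p = 1.06e-05). It was higher under all the other alternatives, and adjusted p ran from 1.40e-10 to 0.000387 over the alternatives in either direction. The table holds counts per gene and not per exon, so reads from outside a deleted exon are counted too. For this reason every direction below refers to the libraries as labelled.

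Total counts ran from 8228513 to 17334207 a library, and 3 counts corresponded to 0.155 to 0.425 CPM. The groups also differed in the markers of other cells. Summed over all 21 pancreatic acinar markers, 11.8 to 12.1% of counts in the labelled control libraries came from these genes, against 0.000839 to 0.00102% in the labelled Batf-deficient libraries, where 7 of the 21, among them Try4 and Amy2a1, were at 0. The 20 intestinal epithelial markers summed to 1.97 to 2.09% against 0.0606 to 0.0724%, the 16 plasma and B cell markers to 1.43 to 1.45% against 0.121 to 0.138%, the 12 macrophage and dendritic cell markers to 0.105 to 0.116% against 0.00808 to 0.00842%, and the 12 stromal and endothelial markers to 0.123 to 0.131% against 0.0123 to 0.0152%. In the opposite direction, the 13 ILC3 markers summed to 0.165 to 0.192% against 0.964 to 1.02%, the 10 T cell receptor complex genes to 0.0380 to 0.0404% against 0.190 to 0.204%, and 8 inducible heat shock genes to 0.0922 to 0.0940% against 3.93 to 4.16%. No marker of these groups other than the 7 acinar ones was at 0 in a whole group. Not every marker followed its sum in the edgeR test used below (adjusted p under 0.05). Of the 16 plasma and B cell markers, 3 were higher and 12 lower. Of 11 macrophage and dendritic cell markers tested, 1 was higher and 9 lower, and of the 12 stromal and endothelial ones 1 and 10. Of the 20 epithelial markers, 0 were higher and 19 lower. Among all genes 30.2% were higher and 34.1% lower. In bulk RNA, fewer cells of a type and less RNA per cell cannot be told apart, and the part of these differences in the class I values was not tested. Because of them, each class I value is also given relative to a panel of 19 genes expressed in lymphocytes, such as Thy1, Il7r, Lck and Cd2, a panel that earlier work had chosen on these data. Panel genes made up 0.149 to 0.158% of counts in the labelled control and 0.713 to 0.738% in the labelled Batf-deficient libraries.

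Of the members, 8 lie on chromosome 17 in or next to the H2 complex (mm10, GENCODE M21): H2-K1 at chr17:33996017-34000347 on the minus strand, H2-D1 at chr17:35262730-35267499, H2-Q4 at chr17:35379617-35385290, H2-Q5 at chr17:35394126-35397800, H2-Q6 at chr17:35424850-35430055 and H2-Q7 at chr17:35439155-35443773 on the plus strand, H2-T23 at chr17:36029773-36032855 on the minus strand, and H2-M3 at chr17:37270220-37274484 on the plus strand. B2m is at chr2:122147686-122153083 on the plus strand and Cd1d1 at chr3:86995834-86999441 on the minus strand. All are annotated as protein coding except H2-Q5, which is a polymorphic pseudogene in GENCODE and a transcribed pseudogene in RefSeq.

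Promoters are shown because most members were higher together in the same libraries. RefSeq (GRCm38.p6) promoter windows were matched by symbol for 8 of the 10 members, and H2-Q5 and Cd1d1 were not matched. The following stretches, 5′ to 3′ on the strand of the gene, run from the outermost motif match on each side with a few flanking bases and stop where a GENCODE exon begins. That of H2-Q4 was set by hand to begin further upstream, at -180, although its first match is at -153. None is shown for H2-D1 and H2-T23, because the whole stretch holding their matches (132 and 86 bases) lies within annotated GENCODE exon, so that their matches counted below are in exon and not upstream of it. Capitals mark matches, on either strand, to the kappaB motif GGGATTCCC, the interferon element GAAANNGAA, a class I form of it GAAGTGAAA (seen as TTTCACTTC on the gene's strand), the X2 or CRE core TGACG, and the CCAAT box, read as ATTGG where it lies on the other strand.
B2m (chr2:122147543-122147643, plus strand): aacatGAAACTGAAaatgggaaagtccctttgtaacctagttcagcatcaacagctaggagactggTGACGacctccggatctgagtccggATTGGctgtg
H2-K1 (chr17:34000348-34000462, minus strand): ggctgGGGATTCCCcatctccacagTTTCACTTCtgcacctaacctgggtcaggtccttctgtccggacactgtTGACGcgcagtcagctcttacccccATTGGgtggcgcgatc
H2-Q4 (chr17:35379437-35379571, plus strand): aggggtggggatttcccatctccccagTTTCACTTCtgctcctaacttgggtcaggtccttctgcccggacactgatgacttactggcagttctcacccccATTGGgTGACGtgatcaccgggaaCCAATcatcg
H2-Q6 (chr17:35424673-35424804, plus strand): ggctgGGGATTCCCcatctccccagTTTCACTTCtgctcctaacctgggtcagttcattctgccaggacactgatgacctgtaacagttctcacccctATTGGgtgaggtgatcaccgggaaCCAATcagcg
H2-Q7 (chr17:35439018-35439148, plus strand): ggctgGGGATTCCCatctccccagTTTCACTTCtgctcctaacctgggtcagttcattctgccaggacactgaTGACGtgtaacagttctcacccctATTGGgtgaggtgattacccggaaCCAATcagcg
H2-M3 (chr17:37270100-37270219, plus strand): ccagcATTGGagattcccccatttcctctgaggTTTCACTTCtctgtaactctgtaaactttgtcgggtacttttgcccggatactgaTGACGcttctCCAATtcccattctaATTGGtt

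In the 250 bases before the start, the kappaB letters GGGATTCCC were found in 4 of the 8 promoters (H2-K1, H2-D1, H2-Q6 and H2-Q7) and in 0.352% of the promoters of all 27025 symbols in the RefSeq table. Only these exact letters were searched for kappaB. Similar runs, such as gggatttccc in the H2-Q4 stretch and gggaaagtccc in the B2m stretch, were not counted, so a kappaB site of another form is not excluded there. The form GAAGTGAAA, a motif added after the sequences were seen, was in 6 of 8 (H2-K1, H2-D1, H2-Q4, H2-Q6, H2-Q7 and H2-M3) and in 0.477% of all promoters. B2m and H2-T23 instead held GAAANNGAA, as did 8.18% of all promoters. TGACG was in 6 of 8, all but H2-Q6 and H2-T23, against 19.8% of all promoters, and CCAAT was in 8 of 8 against 37.5%. The TGACG of H2-Q4 (-73 to -69) comes after its ATTGG (-79 to -75). In B2m, H2-K1, H2-D1 and H2-Q7 it comes before, so the H2-Q4 match is not at the same place. The AP-1 letters TGANTCA, of the kind bound by BATF with its JUN partners, were in 0 of 8 and in 7.82% of all promoters. Neighbouring class I genes descend from common ancestors, so their promoters are not independent. A match is a run of letters and not a measured binding site, and a missing match says only that these letters are not in the window.

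**Figure D1:**
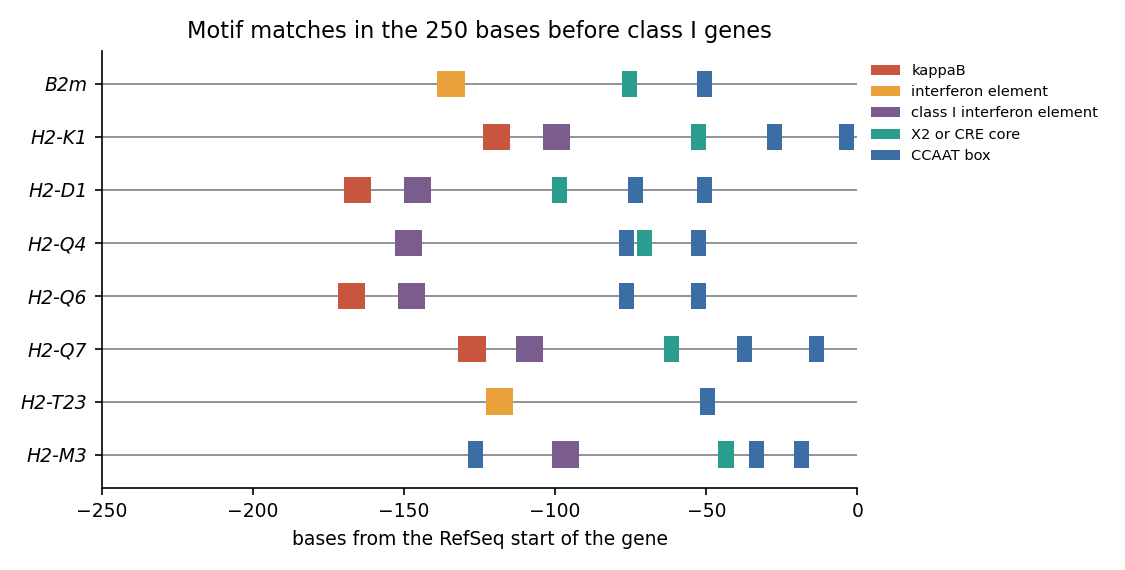
Positions of motif matches in the 250 bases before the RefSeq start (x axis, bases from the start) of the 8 members in the promoter table, with 1 row per gene and coloured boxes for each motif. H2-K1, H2-D1, H2-Q6 and H2-Q7 hold an exact GGGATTCCC kappaB match upstream of the class I interferon element. Other forms of kappaB were not searched. B2m and H2-T23 hold the other interferon element.

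B2m, the light chain that all the heavy chains share, was a highly abundant transcript in the labelled Batf-deficient libraries. It was counted at 636, 805 and 819 CPM in the labelled control group and at 12297, 12807 and 10848 CPM in the labelled Batf-deficient group. All labelled Batf-deficient libraries lay far above all labelled control ones. The means of 753 ± 102 and 11984 ± 1016 CPM (SD, n = 3 each) differed 15.9-fold, a log2 fold change of 3.99 (SE 0.12), and the log2 fold change to the panel was 1.37. Ranked by CPM among all genes, B2m moved from position 112 to position 8.

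The classical heavy chains had the highest heavy chain levels in both groups. H2-K1 was at 1310, 1315 and 1397 CPM in the labelled control libraries and at 10615, 10111 and 8746 CPM in the labelled Batf-deficient ones, a 7.33-fold difference (log2 2.87, SE 0.10). H2-D1 was at 1117, 1135 and 1396 CPM against 10962, 10420 and 8963 CPM, an 8.32-fold difference (log2 3.06, SE 0.12). The groups did not overlap for either gene, and in both, library 3 was the lowest of the labelled Batf-deficient group. Relative to the panel the difference was much smaller, at 1.19-fold for H2-K1 and 1.35-fold for H2-D1. The libraries did not overlap but lay close. For H2-K1 the highest labelled control ratio was 1.04 and the lowest labelled Batf-deficient ratio 1.08, and for H2-D1 these were 1.04 and 1.11.

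The Q region genes fell on both sides of the classical pair. H2-Q7 was at 236, 224 and 206 CPM in the labelled control libraries, against 4714, 4439 and 3862 CPM in those labelled Batf-deficient, a 19.5-fold difference (log2 4.29, SE 0.11). Its partner in making Qa-2, H2-Q6, was at 186, 164 and 197 CPM against 2649, 2484 and 2193 CPM, or 13.4-fold (log2 3.74, SE 0.11). H2-Q5, annotated as a pseudogene, was at 29.8, 28.5 and 31.4 CPM against 910, 874 and 728 CPM. This 28.0-fold difference (log2 4.80, SE 0.12) was the widest of the 10 members. H2-Q4, which encodes the Qb-1 chain, was at 53.9, 59.7 and 46.5 CPM against 294, 260 and 199 CPM, or 4.70-fold (log2 2.23, SE 0.15). So H2-Q5, H2-Q6 and H2-Q7, 3 of the 7 nonclassical genes, had log2 fold changes above both classical genes, and H2-Q4 lay below both. The panel-relative log2 fold changes were 2.18 for H2-Q5, 1.67 for H2-Q7 and 1.12 for H2-Q6, while that of H2-Q4 was -0.39, with overlapping libraries.

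The remaining nonclassical genes differed less than H2-Q5, H2-Q6 and H2-Q7, though H2-T23 differed more than H2-Q4. H2-T23, whose product Qa-1 carries leader peptides of classical class I chains to NKG2A, was at 62.7, 64.2 and 66.1 CPM in the labelled control libraries and at 547, 530 and 422 CPM in the labelled Batf-deficient ones, or 7.76-fold (log2 2.96, SE 0.12). H2-M3 was at 12.6, 16.4 and 12.6 CPM against 47.7, 47.2 and 55.3 CPM, or 3.61-fold (log2 1.85, SE 0.16). For both genes the groups stood clear of each other. Cd1d1 was at 4.14, 1.77 and 4.45 CPM (44, 31 and 86 counts) against 7.05, 4.39 and 5.06 CPM (51, 31 and 63 counts). Its groups overlapped, with the lowest labelled Batf-deficient library below the highest labelled control one, and its log2 fold change of 0.67 had an SE of 0.43. To the panel, H2-T23 was 1.26-fold higher, whereas H2-M3 (0.588-fold) and Cd1d1 (0.259-fold) were lower in all labelled Batf-deficient libraries.

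**Figure D2:**
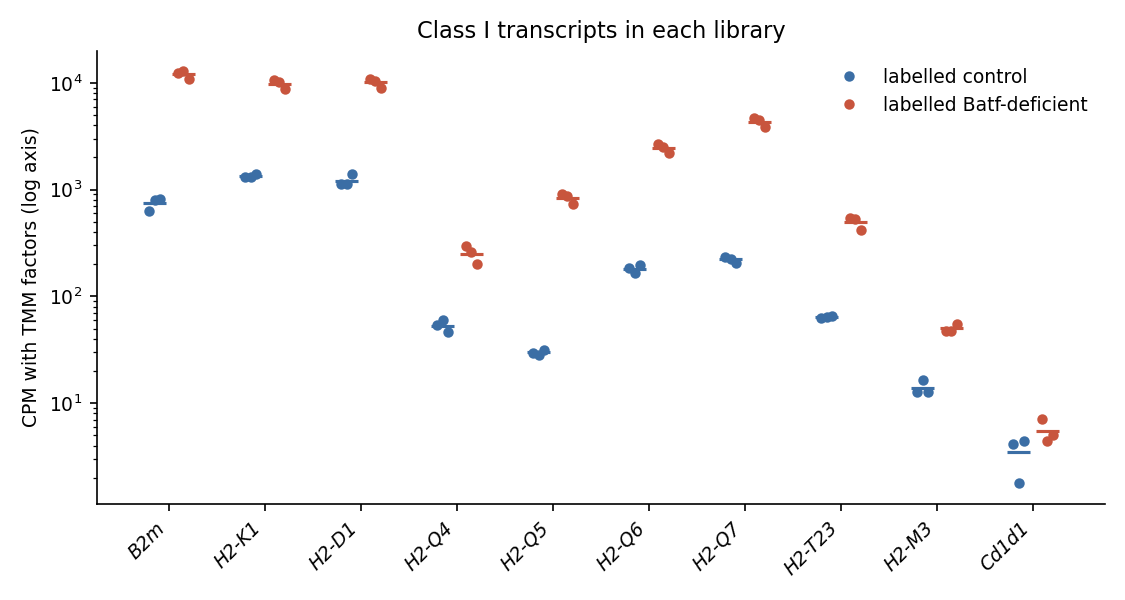
Level of each class I gene (x axis) in each library (points) in CPM with TMM factors on a log axis, with group means as short lines, for 3 labelled control and 3 labelled Batf-deficient libraries. The groups are apart for 9 of the 10 genes and overlap for Cd1d1, and H2-Q5 shows the widest gap, from 28.5 to 31.4 CPM up to 728 to 910 CPM.

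Counted together, 9 of the 10 members were higher in all labelled Batf-deficient libraries and 1, Cd1d1, overlapped; of all genes tested, 34.6% were higher in all labelled Batf-deficient libraries and 71.2% had no overlap in one direction or the other. The median log2 fold change was 3.01 over the members and 0.02 over all genes, with the largest at 4.80 and the smallest at 0.67. The scaling of the libraries sets much of these sizes. Raw library totals in place of TMM gave smaller differences: the member median was 2.62 and that of all genes -0.36, and with the panel it was 0.38 against -2.60, so that 7 members were above and 3 (H2-Q4, H2-M3 and Cd1d1) below 0 under the panel.

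**Figure D3:**
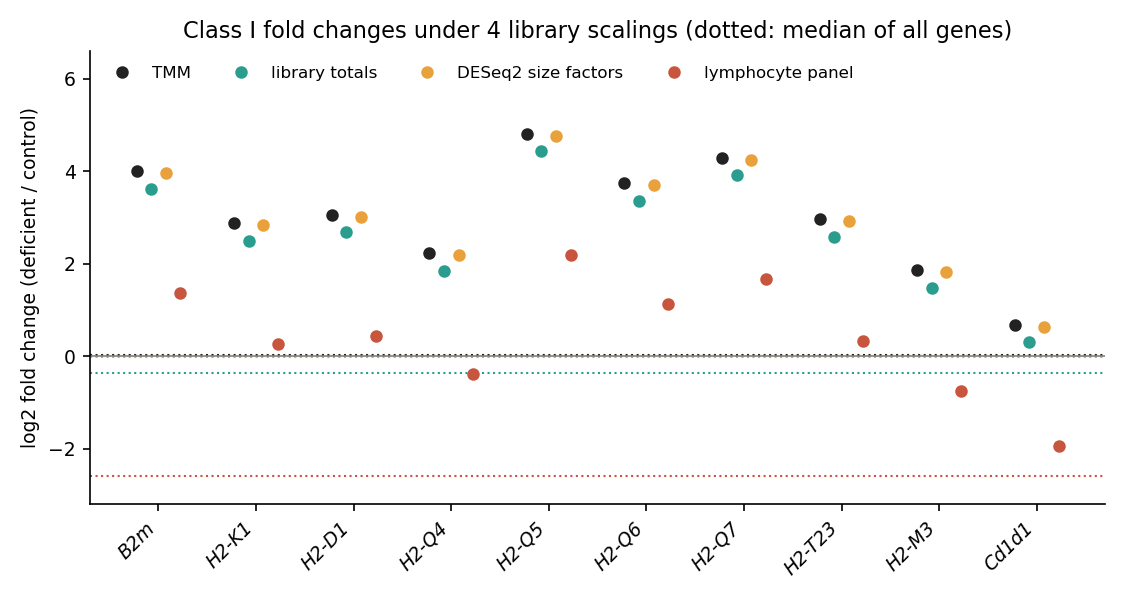
Log2 fold change (labelled Batf-deficient over labelled control) of each class I gene under 4 library scalings, with the median of all tested genes under each scaling as a dotted line of the same colour. TMM, DESeq2 size factors and library totals give positive values for all 10 genes, while the panel, under which the median of all genes is lower by 2.61, puts H2-Q4, H2-M3 and Cd1d1 below 0.

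Expressed per kilobase of exon, so that genes can be ranked against each other, the levels in the labelled control libraries ran from B2m (876 ± 119 CPM per kb, SD, n = 3) to H2-D1 (472 ± 60.4) and H2-K1 (456 ± 16.6), then to H2-Q6 (87.5 ± 8.02), H2-Q7 (52.1 ± 3.47), H2-T23 (22.3 ± 0.585), H2-Q4 (20.6 ± 2.56), H2-Q5 (18.8 ± 0.911), H2-M3 (9.65 ± 1.51) and Cd1d1 (1.34 ± 0.571). H2-D1 and H2-K1 overlapped in this order, as did H2-T23 with H2-Q4 and H2-Q4 with H2-Q5. In the labelled Batf-deficient libraries B2m (13935 ± 1182 CPM per kb) was again first, with H2-D1 (3922 ± 401) and H2-K1 (3344 ± 329) next and overlapping. H2-Q6 (1171 ± 111) and H2-Q7 (1017 ± 102) followed, also overlapping. H2-Q5 (526 ± 60.7) came next and stood clear of H2-T23 (173 ± 23.5), H2-Q4 (96.7 ± 18.5), H2-M3 (34.8 ± 3.16) and Cd1d1 (2.14 ± 0.538). The order of the groups was thus the same except for H2-Q5, which moved from position 8 to position 6. Length here is the union of all annotated exons of a gene, 4.265 kb for H2-Q7 and 2.085 kb for H2-Q6. In CPM without length, H2-Q7 was above H2-Q6 in both groups (222 against 182 and 4338 against 2442). H2-K1 was above H2-D1 in the labelled control group (1340 against 1216). The order within these pairs thus depends on the length used.

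Ratios between members within a library need no scaling and show how the mixture of class I transcripts differed. H2-K1 and H2-D1 held 80.6, 81.4 and 83.2% of all heavy chain counts in the labelled control libraries and 70.2, 70.4 and 70.3% in the labelled Batf-deficient ones. The share of the 4 Q region genes was 15.7 ± 1.24% (SD, n = 3) against 27.7 ± 0.121%. H2-Q7 accounted for most of this, with 7.83, 7.44 and 6.15% against 15.3, 15.2 and 15.3%. H2-Q6 held 5.83 ± 0.365% against 8.61 ± 0.0970% and H2-Q5 held 0.958 ± 0.0277% against 2.95 ± 0.0538%. The shares of H2-Q4 (1.72 ± 0.306% against 0.879 ± 0.0827%), H2-T23 (2.06 ± 0.0848% against 1.76 ± 0.0736%), H2-M3 (0.446 ± 0.0875% against 0.179 ± 0.0355%) and Cd1d1 (0.110 ± 0.0441% against 0.0194 ± 0.00398%) were smaller in the labelled Batf-deficient libraries. None of these shares overlapped between the groups.

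The shares of the classical pair differed unequally between the groups. H2-K1 held 42.9 ± 1.15% of heavy chain counts in the labelled control and 34.6 ± 0.110% in the labelled Batf-deficient libraries, and H2-D1 38.8 ± 2.42% against 35.7 ± 0.0574%. The ratio of H2-D1 to H2-K1 was 0.853, 0.864 and 0.999 against 1.03, 1.03 and 1.02, so labelled control library 3 lay near the labelled Batf-deficient libraries. For H2-Q7 to H2-K1 the ratio was 0.180, 0.170 and 0.148 against 0.444, 0.439 and 0.442. The heavy chain counts summed to 4.74, 3.74 and 4.10 times the B2m counts in the labelled control libraries and to 2.50, 2.28 and 2.32 times in the labelled Batf-deficient ones, without overlap. In counts per kilobase this ratio was 1.31 against 0.738. Of all counts, the heavy chains made up 0.356 ± 0.0161% in the labelled control and 2.48 ± 0.170% in the labelled Batf-deficient libraries, and B2m 0.0858 ± 0.00979% and 1.05 ± 0.0533%.

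**Figure D4:**
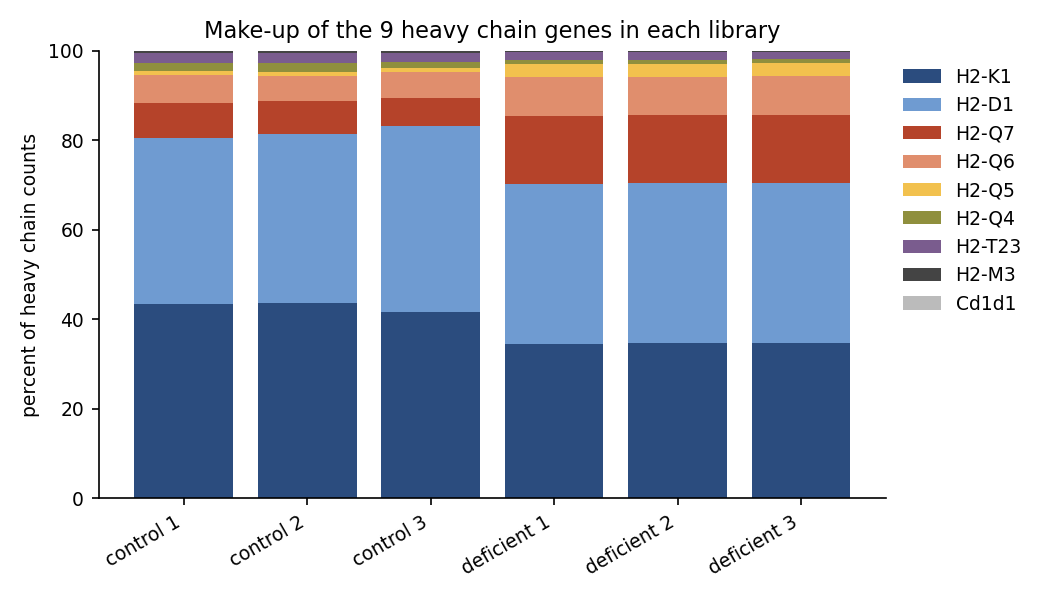
Percent of the summed counts of the 9 heavy chain genes held by each gene (y axis) in each library (x axis), as stacked bars that add to 100. The bars of H2-K1 and H2-D1 reach 80.6 to 83.2% in the labelled control and 70.2 to 70.4% in the labelled Batf-deficient libraries, and the H2-Q7 part is 15.2 to 15.3% in the latter.

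Class I genes are close copies, and a short read can fall on several of them. Of the 50-base windows of their GENCODE transcripts, 0 of 811 in B2m and 0.576% in H2-M3 were found in the transcripts of another gene, against 6.87% in H2-K1, 13.9% in H2-D1, 24.3% in H2-Q4, 25.1% in Cd1d1 (shared with Cd1d2), 28.8% in H2-T23, 32.0% in H2-Q6, 34.9% in H2-Q7 and 40.1% in H2-Q5. H2-Q5 shared 26.4% of its windows with H2-Q7 and 12.9% with H2-Q6. The values of the Q region genes and H2-T23 are uncertain, since the treatment of reads with several matches is not given in the sources used here. The percentage of shared windows does not bound the error, which also depends on the level of the gene that shares them. H2-Q5 had mean levels of 29.9 (labelled control) and 837 CPM (labelled Batf-deficient), against 222 and 4338 CPM for H2-Q7. Summing the Q genes avoids their mutual copies, and B2m, H2-M3 and H2-K1 are the members least exposed. Leaving out H2-Q6 and H2-Q7, the classical share was 93.9% in the labelled control and 92.4% in the labelled Batf-deficient libraries, and the share of H2-Q4 and H2-Q5 3.08% and 5.03%.

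Other genes of the class I family, from a list of 31 of which 22 were in the table and 15 were tested, moved in both directions. In the edgeR test over all genes, 6 rose, 3 fell and 6 did not pass an adjusted p of 0.05, with a median log2 fold change of 0.08; over all genes 30.2% were higher and 34.1% lower in the labelled Batf-deficient libraries (4612 and 5209 genes, or 3052 and 6477 with library totals). The genes that rose were H2-T10, H2-K2, Mill2, H2-Q10, H2-T22 and H2-T24. Mill2 had only 0, 19 and 8 counts in the labelled control libraries and 23, 25 and 27 in the others (log2 2.46, SE 0.81, edgeR adjusted p = 0.0187). H2-T10 had 20, 10 and 27 counts against 176, 130 and 237, so the size of both rises is uncertain. Leaving out each library in turn gave 5 to 7 higher calls in this list. Several of the genes that rose share windows, as counted above, with members that had far higher counts. H2-T22 held 77 windows of H2-D1 and 82 of H2-T23, and H2-K2 held 60 and 62. H2-Q10 held 67 of H2-D1 and 41 of H2-K1, whereas H2-T10 held only 4 of H2-Q5 and 3 of H2-T23. The part of reads from the members in these rises was not tested. H2-K2, a pseudogene next to H2-K1, rose from 9.10 ± 0.962 to 84.8 ± 17.9 CPM (SD, n = 3; log2 3.21, SE 0.18, adjusted p = 1.98e-08) and remained higher to the panel (log2 0.59, adjusted p = 0.0135). H2-Q10, best known as a secreted class I molecule of liver, rose from 19.1 ± 3.76 to 94.9 ± 11.3 CPM (log2 2.31, SE 0.17, adjusted p = 1.51e-07), and H2-T22, a ligand of some gamma delta T cell receptors, from 32.1 ± 3.29 to 83.0 ± 3.16 CPM (log2 1.37, SE 0.12, adjusted p = 1.15e-06); with the panel both changed sign, to -0.31 and -1.25, as did H2-T24 (-1.47) and Mill2 (-0.14).

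The genes of this list that fell were H2-T3, Fcgrt and Procr. H2-T3, the TL antigen of intestinal epithelium, fell from 68.5 ± 9.03 to 7.17 ± 1.70 CPM (SD, n = 3; log2 -3.28, SE 0.19, edgeR adjusted p = 2.71e-08). Fcgrt, the heavy chain of the neonatal Fc receptor, fell from 44.3 ± 4.29 to 2.85 ± 0.860 CPM (log2 -3.91, SE 0.23, adjusted p = 2.41e-08). Procr, the endothelial protein C receptor, fell from 18.7 ± 2.57 to 0.802 ± 0.165 CPM (log2 -4.54, SE 0.31, adjusted p = 1.10e-07). Its counts in the labelled Batf-deficient libraries were only 5, 7 and 9, so the size of the Procr fall is uncertain. The summed epithelial markers (1.97 to 2.09% of counts against 0.0606 to 0.0724%) were lower in the same libraries. So were the sums of the macrophage and dendritic cell markers (0.105 to 0.116% against 0.00808 to 0.00842%) and of the endothelial and stromal ones (0.123 to 0.131% against 0.0123 to 0.0152%). The part of these markers in the H2-T3, Fcgrt and Procr differences was not tested. With the panel, where 1.6% of all genes were higher and 88.8% lower, 2 of the 15 genes (H2-T10 and H2-K2) were higher and 11 lower.

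Among 13 genes of the machinery that cuts peptides and loads them, 9 were higher in the labelled Batf-deficient libraries, 0 were lower and 4 did not pass the edgeR test, with a median log2 fold change of 0.51. Among all genes 30.2% were higher and 34.1% lower. None of the 13 was lower at an unadjusted p under 0.05, and DESeq2 and limma also called 0 lower. With library totals, however, 5 were higher and 2 lower, and leaving out each library in turn gave 6 to 10 higher and 0 to 1 lower, the 1 without labelled Batf-deficient library 3. Tap2, a subunit of the peptide transporter, rose from 40.0 ± 7.83 to 143 ± 8.17 CPM (SD, n = 3; log2 1.84, SE 0.14, edgeR adjusted p = 2.95e-07), whereas its partner Tap1 rose from 98.3 ± 13.0 to 147 ± 6.05 CPM (log2 0.59, SE 0.11, adjusted p = 0.000759). Psmb8, an immunoproteasome subunit, rose from 268 ± 18.7 to 690 ± 41.9 CPM (log2 1.36, SE 0.09, adjusted p = 1.16e-07). Pdia3, the oxidoreductase of the loading complex, had a log2 fold change of 1.03 (adjusted p = 6.12e-07), the proteasome activator Psme1 of 0.95 (adjusted p = 6.31e-06) and Tapbp, the tapasin that bridges heavy chain and transporter, of 0.65 (adjusted p = 0.000242). With the panel, under which 88.8% of all genes were lower, 0 of the 13 were higher and 13 were lower, Tap2 at -0.78, Psmb8 at -1.26 and Tap1 at -2.03, and with library totals Tap1 no longer passed the test (log2 0.21, adjusted p = 0.178). Of the members, a set chosen by its values in this comparison, 7 kept their sign with the panel, among them H2-K1, H2-D1 and B2m at 0.25, 0.43 and 1.37. The other 3, H2-Q4 (-0.39), H2-M3 (-0.77) and Cd1d1 (-1.94), changed sign.

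Of 16 regulators of class I genes, 6 were higher, 1 was lower and 9 did not pass in the edgeR test, with a median log2 fold change of 0.28; the share of all genes was 30.2% higher and 34.1% lower. With library totals 5 of the 16 were lower. Nlrc5, the transactivator of class I genes, rose from 16.5 ± 1.84 to 48.3 ± 1.28 CPM (SD, n = 3; log2 1.55, SE 0.15, adjusted p = 1.84e-06). Ciita, its relative for class II genes, fell from 16.5 ± 6.17 to 4.79 ± 1.14 CPM (log2 -1.76, SE 0.33, adjusted p = 0.000603). The interferon-responsive factor Irf1 rose from 135 ± 14.7 to 372 ± 14.7 CPM (log2 1.46, SE 0.10, adjusted p = 1.45e-07). Nfya, a subunit of the factor that binds CCAAT, rose from 3.95 ± 0.980 to 12.1 ± 0.263 CPM (log2 1.60, adjusted p = 0.000405), and the NF-kappaB subunit Nfkb1 had a log2 fold change of 0.47 (adjusted p = 0.000669). With the panel, under which 88.8% of all genes were lower, all 16 were lower, Nlrc5 at -1.07, Irf1 at -1.15, Nfya at -1.01 and Nfkb1 at -2.15, and with library totals Nfkb1 did not pass (log2 0.10, adjusted p = 0.444).

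**Figure D5:**
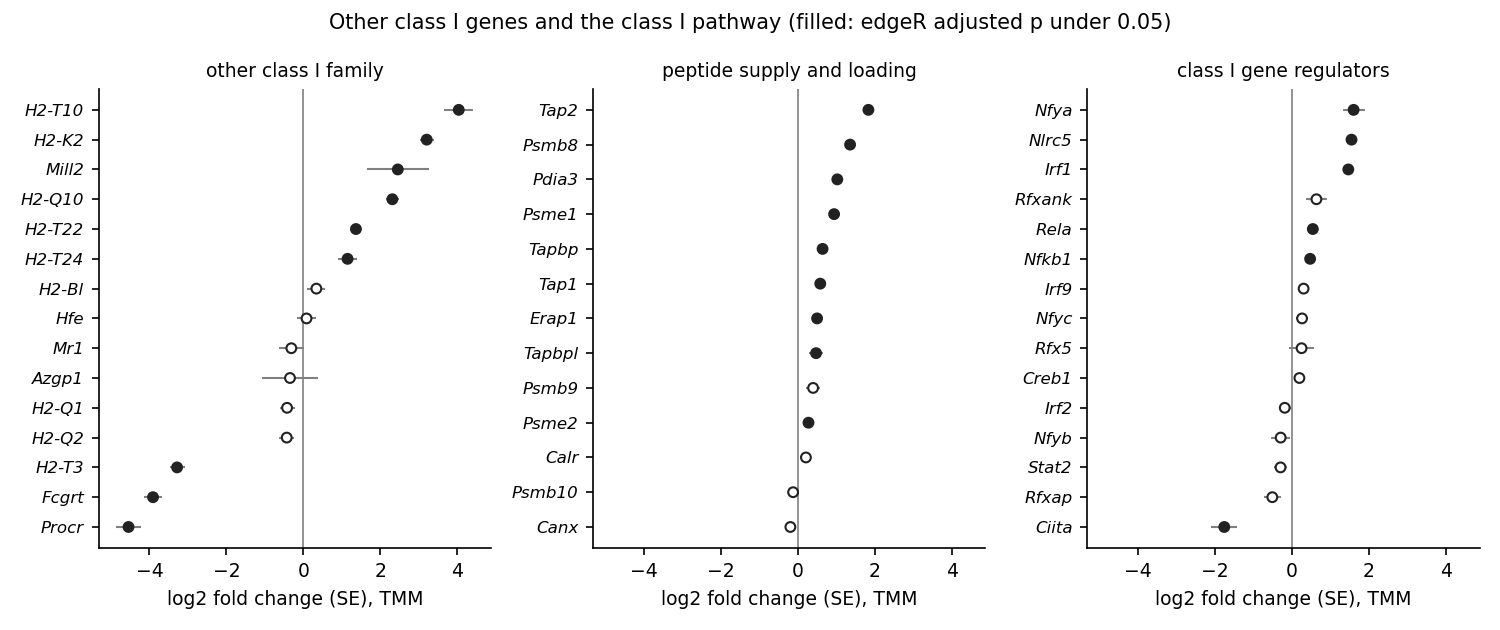
Log2 fold change with its SE (x axis, labelled Batf-deficient over labelled control, TMM) of the tested genes of the other class I family, of peptide supply and loading and of the class I regulators (15 of 16 drawn), with filled points for an edgeR adjusted p under 0.05. The class I family spreads from Procr at -4.54 to H2-T10 at 4.04, and the loading genes reach at most 1.84, for Tap2.

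Receptors for class I and CD1 molecules were sparsely detected, with 10 of the 20 in the table tested. Of these, 2 were higher, 2 lower and 6 did not pass the edgeR test (median log2 fold change -0.26), beside 30.2% higher and 34.1% lower among all genes. With the panel 0 were higher and 8 lower, against 1.6% and 88.8% of all genes. Cd160, a receptor of innate and cytotoxic lymphocytes that can bind class I, rose from 11.5 ± 2.36 to 85.8 ± 8.74 CPM (SD, n = 3; log2 2.92, SE 0.17, adjusted p = 1.90e-08), and with the panel it no longer passed (log2 0.30, adjusted p = 0.149). Klrc1, which encodes NKG2A, the receptor for the H2-T23 product, rose from 8.41 ± 0.342 to 23.3 ± 2.98 CPM (log2 1.46, SE 0.20, adjusted p = 4.22e-05), and was lower with the panel (-1.16). Cd8a, the co-receptor chain that binds class I, fell from 4.63 ± 1.33 to 0.227 ± 0.151 CPM (log2 -4.15, SE 0.61, adjusted p = 8.76e-05). These were 62, 56 and 94 counts against 1, 1 and 5, near the floor, so the size of the Cd8a fall is uncertain. Pirb, an inhibitory class I receptor of myeloid and B cells, fell from 8.12 ± 1.91 to 1.84 ± 0.532 CPM (log2 -2.13, SE 0.38, adjusted p = 0.000410). The summed macrophage and dendritic cell markers (0.105 to 0.116% against 0.00808 to 0.00842% of counts) were lower in the same libraries. The summed plasma and B cell markers (1.43 to 1.45% against 0.121 to 0.138%) were also lower, and the part of either in the Pirb difference was not tested.

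Class II genes went the other way from the class I members. Of 9 class II presentation genes tested, 9 fell and 0 rose, by edgeR and also by DESeq2 and limma, with none higher at an unadjusted p under 0.05 and a median log2 fold change of -2.76. Over all genes the edgeR shares were 30.2% higher and 34.1% lower. Cd74, the invariant chain, fell from 1642 ± 106 to 410 ± 14.1 CPM (SD, n = 3; log2 -2.003, SE 0.09, edgeR adjusted p = 2.07e-09). H2-Ab1 fell from 470 ± 29.4 to 69.5 ± 5.69 CPM (log2 -2.76, adjusted p = 5.69e-10), H2-Aa from 370 ± 27.4 to 60.6 ± 2.55 CPM (log2 -2.61, adjusted p = 7.07e-10) and H2-Eb1 from 349 ± 26.7 to 51.6 ± 0.696 CPM (log2 -2.76, adjusted p = 4.51e-10). All 9 were also lower with the panel, under which 88.8% of all genes were lower. The summed markers of plasma and B cells and of macrophages and dendritic cells, cells that carry class II, were lower in the same libraries, as given above. Single markers went the other way, with 3 of 16 and 1 of 11 higher. The part of these cells in the class II difference was not tested.

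Neighbours in the H2 region were counted because 8 members share it. Between H2-K1 and H2-M3, leaving out genes with class I or class II symbols, 167 annotated genes were in the table and 108 were tested. Of these, 42 were higher, 37 were lower and 29 did not pass the edgeR test, with a median log2 fold change of 0.18, beside 30.2% higher and 34.1% lower among all genes. The 167 still held 9 unnamed gene models whose transcripts share 50-base windows with a member, 3 of them tested, and without these, in an alternative added after the data were seen, 41 of 105 were higher and 36 lower. With library totals 27 of the 108 were higher, and with the panel 5 were higher and 93 lower.

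The genes whose profile over the 6 libraries was nearest to that of a member were found by the root mean square (RMS) difference of centred log2 CPM, over 8546 genes whose mean log2 CPM reached 3. Since the groups differ widely, this measure mostly reflects the size of the group difference. Nearest to B2m were Trgc2, a T cell receptor gamma constant gene (RMS 0.0802), and Cd69, a lymphocyte activation and residence marker (0.0821), followed by Serpina3f (0.163), Tnf (0.178) and Actn2 (0.179). Nearest to H2-K1 were the lymphocyte GTPase Gimap4 (0.0557), Zfp36l1 (0.0823), Sik1 (0.0912), Gem (0.0943) and Trbc2 (0.0954). Nearest to H2-Q5 were the heat shock gene Dnaja4 (0.140), Il17a (0.191), the class I pseudogene H2-T-ps (0.210), Mid1 (0.226) and the chaperone Hsp90aa1 (0.232).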

How the data were processed

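The authors deposited raw counts per gene symbol for 6 libraries in 1 table, per the file header and its whole-number values, on mm10 (submitters' processing notes). For the aligner, counting tool, annotation, strand setting and treatment of reads with several matches, nothing is given in the sources used here. Because Smart-seq2 lacks molecular identifiers, a count is a read and not a molecule. Groups follow the genotype labels, and 0 columns were left unused. The test was that of edgeR 4.0.16 under R 4.3.3 (filterByExpr with a minimum count of 10, TMM, robust glmQLFit, two-sided glmQLFTest, Benjamini-Hochberg over 15261 genes, threshold 0.05), after a check on simulated data. Alternatives used library totals, size factors and the Wald test of DESeq2 1.42.0, limma 3.58.1 voom, a lymphocyte panel, no filter, each library left out, and a replicate block. Of the symbols, 24623 (98.2%) matched GENCODE M21, which gave coordinates and exon lengths. Named genes are all 10 members, Batf, up to 6 genes with the lowest p past the threshold from the class I family, loading and regulator lists, up to 4 from the receptor and class II lists, members that a count of 5 or fewer needs, and the 5 genes nearest to B2m, H2-K1 and H2-Q5. H2-T10, Mill2 and H2-T24 were named after their values were seen. A gene that the rule names is not reported here, though list counts include it. The members and lists were chosen with earlier results of these data known.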

Additional observations from a re-analysis of the deposited data

How the results depend on the processing

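The 25 genes that the rule named from the lists, and Batf, kept their direction and call under most alternatives. These were DESeq2 size factors, the DESeq2 Wald test, limma voom, no low count filter, labelled Batf-deficient replicates 1 and 2 summed, and each library left out. H2-T10, Mill2 and H2-T24 are not among the 25. The replicate numbers did not pair the samples (correlations across genes of same-numbered deviations of 0.0045, 0.021 and 0.030, and not every library was nearest to its own number). A fit with the replicate block called 4603 genes higher and 5091 lower, against 4612 and 5209 without it. It lost no call among those 25 genes and Batf.

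With library totals 3052 genes were higher, 5 loading genes were higher and 2 lower, 27 genes of the H2 region were higher, and 5 other class I genes and 5 regulators were lower. With the lymphocyte panel 244 genes were higher and 13555 lower; in order of higher and lower, the other class I family had 2 and 11, loading 0 and 13, regulators 0 and 16, receptors 0 and 8, and the H2 region 5 and 93. Values that changed sign with the panel were Batf at -1.33, H2-Q4 at -0.39, H2-M3 at -0.77, Cd1d1 at -1.94, H2-Q10 at -0.31, H2-T22 at -1.25, Psmb8 at -1.26, Tap2 at -0.78, Pdia3 at -1.59, Psme1 at -1.67, Tapbp at -1.97, Tap1 at -2.03, Irf1 at -1.15, Nlrc5 at -1.07, Nfya at -1.01, Nfkb1 at -2.15, Klrc1 at -1.16, H2-T24 at -1.47 and Mill2 at -0.14 (adjusted p = 0.871, edgeR). The panel moves every gene of a library by the same factor, which shifts the median of all genes by -2.61, and library totals shift it by -0.38.

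Leaving out each library in turn gave 3 to 5 lower calls in the other class I family, 0 to 1 in loading, 1 to 2 among regulators and 2 to 4 among receptors, the higher counts coming without labelled control replicate 1 (class I family and regulators), labelled control replicate 3 (regulators and receptors) or labelled Batf-deficient replicate 3 (loading, regulators and receptors); the cause was not tested. Without H2-Q6 and H2-Q7 the classical share was 93.9% (labelled control) and 92.4% (labelled Batf-deficient), the share of H2-Q4 and H2-Q5 3.08% and 5.03%, and the heavy chain to B2m ratio 3.64 and 1.80. Per kilobase, that ratio was 1.31 and 0.738, and the labelled Batf-deficient classical and Q region shares were 70.6% and 27.3%.

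Among the members, depth limits Cd1d1 most, at 31 to 86 counts a library. Reads that match several near-identical class I genes could not be resolved from counts per gene, and the part of the acinar and epithelial counts of the labelled control libraries in the class I fold changes was not tested.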
